A study of Homo sapiens with 10 samples.

Results

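The 29 genes examined here make cholesterol, carry it between compartments or report its level back to the cell. They were taken by gene symbol from the 57445 gene identifiers of the count tables and fall into 4 role groups. Their choice was made with earlier results of these data known. The groups are 7 enzymes from acetyl-CoA to farnesyl pyrophosphate, 11 enzymes from squalene to cholesterol, 5 genes that control the SREBP transcription factors, and 6 genes of sterol transport, efflux, esterification and receptor turnover. All 29 matched an identifier and 28 had enough counts to be tested. The exception, ABCG1, an exporter of sterol to lipoproteins, had 0 counts in 7 libraries, 1 count in each library labelled RNF2 shRNA2 and 2 counts in RNF2 shRNA1 replicate 2.

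PC3 is an established human prostate cancer cell line with little or no androgen receptor. Messenger RNA of PC3 cells grown in a serum-containing medium was sequenced in 10 libraries, 2 in each of 5 groups. The first 3 groups stably carried a short hairpin RNA, either the Scramble control, RNF2 shRNA1 or RNF2 shRNA2. The other groups were exposed for 48 hours to PRT4165, known as an inhibitor of the histone H2A ubiquitin ligase that RNF2 forms with BMI1 in Polycomb repressive complex 1, or to GW-516, a compound given only by this code name. No hairpin is named for the compound groups, no dose is given, and there was no vehicle group, so Scramble served as the control for all. Effects of compound, solvent and lack of a hairpin vector therefore cannot be told apart. The sources used here do not say whether a hairpin line was a clone or a pool, nor whether a group's libraries came from different cultures. The p-values therefore reflect spread among these libraries only, and this spread may be technical.

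Cells build cholesterol from acetyl-CoA through mevalonate, isoprenoid pyrophosphates, squalene and a chain of sterol intermediates. When sterol in the endoplasmic reticulum is scarce, SCAP escorts SREBP proteins to the Golgi, where they are cleaved and released to switch on genes of synthesis and uptake. INSIG proteins hold SCAP back when sterol is plentiful, and LXR receptors, sensing oxysterols, switch on the exporter ABCA1 and the receptor-degrading ligase MYLIP.

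Total counts per library ran from 65877850 to 108380198. Levels are given as CPM, counts scaled to a common library size with TMM factors, and a gene was called higher or lower at an edgeR adjusted p under 0.05 over 18478 genes. Differences are log2 values of 1 group minus another. Replicate libraries of Scramble, RNF2 shRNA1 and GW-516 were nearly identical. Chi-square divided by its degrees of freedom, over gene counts, was 2.13 to 2.19 within these pairs, against 13.5 for RNF2 shRNA2 and 7.48 for PRT4165. Both ends of a fragment were counted, and counting each fragment 2 times would by itself bring this value to 2. These 3 pairs may each be 1 library sequenced again. Leaving out 1 library of such a pair would then keep the same sample in the fit. Medians or calls of the members, role groups and other gene lists are also given with these pairs summed to 1 sample each. The spread of that fit comes from the RNF2 shRNA2 and PRT4165 pairs alone, and it called fewer of all genes in each of the 8 comparisons. RNF2 stood at 30.6 and 28.3 CPM in Scramble and 12.1 and 11.96 in RNF2 shRNA1, and at 33.5 and 35.3 in the libraries labelled RNF2 shRNA2 (log2 -1.29 and 0.23 against Scramble, edgeR adjusted p = 2.3e-15 and 0.0010). BMI1 stood at 251 and 255 CPM in Scramble and 53.0 and 61.6 in those libraries (log2 -2.14, edgeR adjusted p = 9.8e-12). So that second hairpin group had less BMI1 mRNA and no less RNF2 mRNA than Scramble, and its results are read with this in view. Per the file headers all 10 libraries carried the short name MDV3, the GW-516 libraries also Th4, the libraries labelled RNF2 shRNA2 also 20155, and replicate 2 of these also L005only. What these names stand for is not stated. KRT8, KRT18, KRT19, EPCAM, CDH1 and VIM, listed for the identity of an epithelial cell line, summed to 2346 to 2684 CPM per library. Markers of androgen receptor signalling, neuroendocrine, blood, endothelial and fibroblast cells each summed to at most 0.97 CPM. The fibroblast markers summed to 0.97 and 0.81 CPM in RNF2 shRNA1 and 0.67 and 0.79 with GW-516, against 0.39 and 0.36 in Scramble. Those of androgen receptor signalling summed to 0.45 and 0.46 CPM in Scramble and to at most 0.11 in any other library. The part of either in the results was not tested. In such bulk RNA, fewer cells with a transcript and less of it per cell cannot be told apart.

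Promoter stretches are shown for 6 members, chosen because INSIG1, MSMO1 and HMGCS1 had the largest rises with RNF2 shRNA1, SREBF2 was the only member with a sterol response element match, and INSIG2 and PMVK did not follow their role groups. Each stretch covers 180 bases, from 190 to 11 bases before the RefSeq transcript start, on GRCh38.p14 and in the direction of the gene. Capitals mark the CCAAT box, the letters CCAAT or their reverse complement ATTGG, and in SREBF2 also the sterol response element.
INSIG1, chr7:155297688-155297867, forward strand: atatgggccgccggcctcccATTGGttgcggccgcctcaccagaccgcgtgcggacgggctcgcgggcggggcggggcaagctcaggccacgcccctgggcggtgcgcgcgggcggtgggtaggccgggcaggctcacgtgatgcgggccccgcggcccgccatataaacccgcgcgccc
MSMO1, chr4:165327479-165327658, forward strand: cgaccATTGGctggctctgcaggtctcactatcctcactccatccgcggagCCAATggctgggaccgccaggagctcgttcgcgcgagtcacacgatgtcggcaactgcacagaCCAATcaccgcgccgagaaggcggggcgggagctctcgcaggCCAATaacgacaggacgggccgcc
HMGCS1, chr5:43313423-43313602, reverse strand: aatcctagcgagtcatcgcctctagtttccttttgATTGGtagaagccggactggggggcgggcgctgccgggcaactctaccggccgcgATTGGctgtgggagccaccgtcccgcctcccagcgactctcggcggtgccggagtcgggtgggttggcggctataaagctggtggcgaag
SREBF2, chr22:41832915-41833094, forward strand: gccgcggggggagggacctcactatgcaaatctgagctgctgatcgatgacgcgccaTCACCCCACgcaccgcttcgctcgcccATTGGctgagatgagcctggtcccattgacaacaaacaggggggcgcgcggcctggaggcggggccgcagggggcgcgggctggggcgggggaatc
INSIG2, chr2:118088281-118088460, forward strand: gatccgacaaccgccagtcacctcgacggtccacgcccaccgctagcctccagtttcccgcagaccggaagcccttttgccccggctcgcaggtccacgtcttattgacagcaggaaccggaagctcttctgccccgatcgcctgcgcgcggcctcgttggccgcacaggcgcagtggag
PMVK, chr1:154936730-154936909, reverse strand: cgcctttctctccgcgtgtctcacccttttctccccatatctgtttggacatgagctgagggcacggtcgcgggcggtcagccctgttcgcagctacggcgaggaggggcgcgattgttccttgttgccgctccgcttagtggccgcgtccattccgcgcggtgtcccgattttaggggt

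The MSMO1 stretch holds 4 CCAAT boxes, that of HMGCS1 holds 2, and those of INSIG2 and PMVK hold none. The stretches of SREBF2 and of INSIG1, which had the largest rise, hold a single CCAAT box each. CCAAT is the core of the box bound by NF-Y, a factor known to work beside SREBP at sterol genes. Exact letters were searched on both strands in RefSeq promoters, which reach from 250 bases before to 50 bases after each start. A promoter entry was found for 25 members. CCAAT occurred in 18 of the 25 (72.0%), against 42.7% of the tested genes with an entry and 34.6% of all 35116 entries. It occurred in 14 of 17 members that rose with RNF2 shRNA1 and in 4 of the other 8. CYP51A1, SREBF1 and NPC1 rose there without CCAAT in the window, while SOAT1, MYLIP, TM7SF2 and EBP had it and did not rise. Another entry of HMGCS1 held no CCAAT. The GC box GGGCGG occurred in 24 of 25 members (96.0%) and in 73.8% of tested genes. TCACNCCAC, the letters searched as a sterol response element, occurred in SREBF2 alone among members and in 1.48% of tested genes. No matches of different motifs overlapped among members. A gene with several entries counted when any of them held the letters. These counts describe letters in a window and show no binding.

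With RNF2 shRNA1, 20 of the 28 tested members rose and 5 fell, where 26.2% of all genes tested rose and 28.6% fell. The median difference of the members was log2 1.15, that of all genes tested -0.015. Of those 20 rises, 16 reached 2-fold, and these include ACAT2 at the start of synthesis and DHCR7 at its end. Among the falls 1 reached 2-fold. Over all 18478 genes tested, 801 rises and 782 falls reached 2-fold. The members together took 0.159% of all counts in each Scramble library and 0.413% and 0.415% in RNF2 shRNA1. Both RNF2 shRNA1 libraries lay above all 8 others for 19 of the 28 members, an order found for 18.9% of all genes tested. They lay below all others for ABCA1 and SCAP alone among the members, an order found for 17.6% of all genes tested. The count of 20 rises did not change when any 1 of the 4 libraries was left out, while the count of falls went from 5 to between 2 and 3. It was 3 without Scramble replicate 1, 2 without Scramble replicate 2, and 3 without either RNF2 shRNA1 library. With the near-identical pairs summed, the median difference was log2 1.17 for the members and 0 for all genes tested. The calls of INSIG2, SCAP and SOAT1 ended there, at log2 -0.12, -0.10 and -0.14. Both groups compared here are near-identical pairs, so leaving out 1 library may have kept the same sample in the fit.

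**Figure D1:**
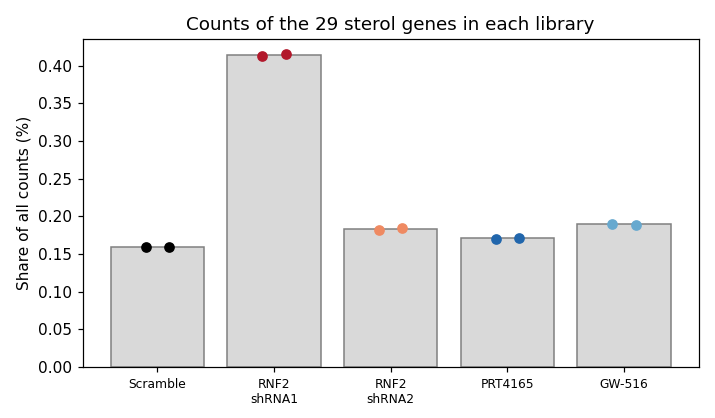
Share of all counts (vertical axis, %) that fell on the 29 sterol genes in each of the 5 groups (horizontal axis). Points are libraries and bars their mean. RNF2 shRNA1 stands at 0.413% and 0.415%, and the other groups between 0.159% and 0.190%.

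Among the libraries labelled RNF2 shRNA2, 17 members rose and 5 fell, where 21.1% of all genes tested rose and 21% fell. The median difference was 0.17, against 0.0086 for all genes tested. No rise reached 2-fold and 1 fall did, that of TM7SF2, where 305 rises and 594 falls among all 18478 genes tested did. The members took 0.182% and 0.184% of counts. With the pairs summed, the medians were 0.16 for the members and 0.0036 for all genes tested. The calls of PMVK, FDPS, SQLE, LSS, INSIG2, SREBF1, NPC1 and SOAT1 ended there. With 1 library left out, 14 to 18 members rose and 2 to 4 fell. The number of falls was 2 without either Scramble library and 2 without RNF2 shRNA2 replicate 1.

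After PRT4165, 12 members rose and 5 fell, against 19.9% and 21.7% of all genes tested. The median difference was 0.065, that of all genes tested -0.012. No member reached 2-fold, where 598 rises and 282 falls among all 18478 genes tested did. The members took 0.1704% and 0.171% of counts. With the pairs summed, the medians were 0.071 for the members and 4.4e-04 for all genes tested. The calls of ACAT2, FDPS, TM7SF2, HSD17B7 and SREBF1 ended there. With 1 library left out, 11 to 14 members rose and 1 to 3 fell. The number of falls was 1 without either Scramble library, 2 without PRT4165 replicate 1 and 3 without PRT4165 replicate 2.

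After GW-516, 15 members rose and 7 fell, against 26.5% and 29% of all genes tested. The median difference was 0.19, that of all genes tested -0.0025. ABCA1, which rose, alone among members reached 2-fold. Over all 18478 genes tested, 1414 rises and 258 falls did. The members took 0.190% and 0.189% of counts. With the pairs summed, the medians were 0.19 for the members and 0.014 for all genes tested. The calls of IDI1, LSS, DHCR7, SREBF1, SREBF2 and SOAT1 ended there. Both GW-516 libraries lay above all 8 others for 3 members, INSIG2, ABCA1 and MYLIP, an order found for 15.3% of all genes tested. All of these comparisons share the 2 Scramble libraries, so a Scramble value that was high or low by chance would move all of them together.

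**Figure D2:**
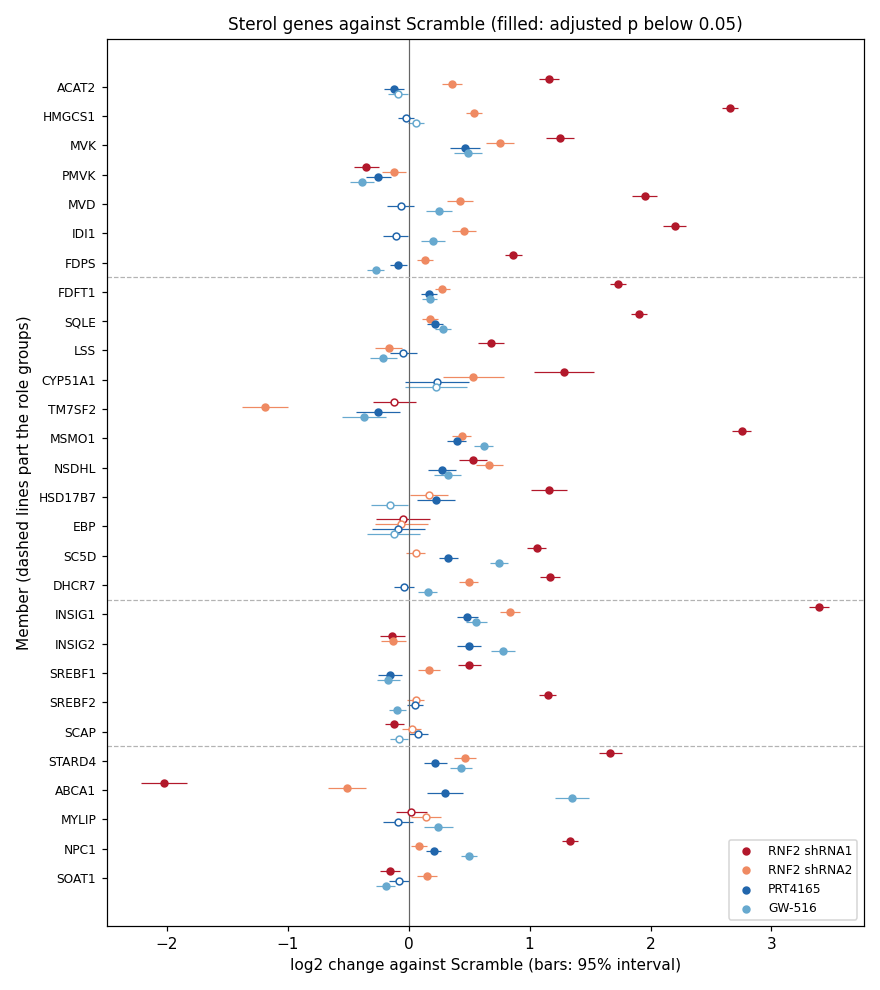
log2 change against Scramble (horizontal axis, with 95% intervals) of the 28 tested members (vertical axis, by role group) in the 4 other groups; filled points passed an edgeR adjusted p of 0.05. RNF2 shRNA1 points of most synthesis enzymes lie far to the right of the other groups, up to 3.39 for INSIG1, while ABCA1 lies at -2.02 in RNF2 shRNA1 and at 1.35 with GW-516.

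Of the 7 enzymes that lead to farnesyl pyrophosphate, 6 rose and 1 fell with RNF2 shRNA1, with the same counts in the libraries labelled RNF2 shRNA2. With PRT4165 1 rose and 3 fell, and with GW-516 3 rose and 2 fell. Of all genes tested, 26.2% rose and 28.6% fell with RNF2 shRNA1, and 21.1% and 21% for RNF2 shRNA2. With PRT4165 the shares were 19.9% and 21.7%, and with GW-516 26.5% and 29%. The role groups are small, and their counts are to be read beside these shares. With the near-identical pairs summed, the medians of these enzymes were 1.26 with RNF2 shRNA1, 0.41 for RNF2 shRNA2, -0.078 with PRT4165 and 0.062 with GW-516. INSIG1, HMGCS1, MSMO1 and ABCA1, which the results below turn on, lie on GRCh37 at chr7:155089486.0-155101945.0 (ENSG00000186480.8), chr5:43289497.0-43313614.0 (ENSG00000112972.10), chr4:166248775.0-166264312.0 (ENSG00000052802.8) and chr9:107543283.0-107690518.0 (ENSG00000165029.11). HMGCS1, which condenses acetyl-CoA with acetoacetyl-CoA, stood at 75.2 and 76.2 CPM in Scramble, 474 and 480.4 in RNF2 shRNA1, 109.8 and 111 in the libraries labelled RNF2 shRNA2, 76.7 and 72.6 with PRT4165 and 79.6 and 78.3 with GW-516. Both RNF2 shRNA1 libraries were far above the rest, and those of PRT4165 overlapped Scramble. The rise was 6.31-fold with RNF2 shRNA1 (log2 2.66, SE 0.033, n = 2 against 2, edgeR adjusted p = 3.1e-26) and 1.46-fold in the libraries labelled RNF2 shRNA2 (edgeR adjusted p = 1.4e-12). With GW-516 the difference was 0.061 (95% interval -0.0075 to 0.13).

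IDI1, which interconverts the isoprenoid units isopentenyl and dimethylallyl pyrophosphate, stood at 25.2 and 26.3 CPM in Scramble, 119 and 118 in RNF2 shRNA1, 35.7 and 34.9 in the libraries labelled RNF2 shRNA2, 24.8 and 22.9 with PRT4165 and 29.97 and 29.3 with GW-516. It rose 4.60-fold with RNF2 shRNA1 (log2 2.20, SE 0.046) and less in the libraries labelled RNF2 shRNA2 (0.46) and with GW-516 (0.20). MVD, which makes isopentenyl pyrophosphate, stood at 22.2 and 23.0 CPM in Scramble, 88.6 and 86.0 in RNF2 shRNA1, 29.9 and 30.7 in the libraries labelled RNF2 shRNA2, 20.6 and 22.7 with PRT4165 and 26.3 and 27.4 with GW-516. Its rise with RNF2 shRNA1 was 3.87-fold (log2 1.95, SE 0.051), while PRT4165 overlapped Scramble (log2 -0.064, 95% interval -0.18 to 0.048). IDI1 with PRT4165 stood at -0.11 (edgeR adjusted p = 0.085), and that difference passed without PRT4165 replicate 1 (0.028).

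MVK, mevalonate kinase, was higher than in Scramble in all 4 other groups. Its levels were 13.7 and 14.6 CPM in Scramble, 33.6 and 33.7 in RNF2 shRNA1, 23.5 and 24.2 in the libraries labelled RNF2 shRNA2, 19.3 and 19.7 with PRT4165 and 19.6 and 20.1 with GW-516. The log2 differences were 1.252, 0.76, 0.47 and 0.49 in that order of groups, each with an edgeR adjusted p of at most 4.1e-07. The next kinase, PMVK, moved the other way. It stood at 44.8 and 44.2 CPM in Scramble, 35.1 and 34.7 in RNF2 shRNA1, 40.7 and 41.1 in the libraries labelled RNF2 shRNA2, 35.4 and 39.5 with PRT4165 and 34.3 and 33.8 with GW-516, so every library outside Scramble was below both Scramble libraries. PMVK fell by 1.28-fold with RNF2 shRNA1, 1.19-fold with PRT4165 and 1.31-fold with GW-516 (edgeR adjusted p = 1.5e-06, 1.9e-04 and 2.7e-07). In the libraries labelled RNF2 shRNA2 the PMVK difference of -0.12 passed with all libraries (edgeR adjusted p = 0.047) but not with 1 left out: 0.17 without Scramble replicate 1, 0.16 without Scramble replicate 2, 0.099 without RNF2 shRNA2 replicate 1 and 0.052 without RNF2 shRNA2 replicate 2.

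ACAT2, the cytosolic thiolase at the start of the pathway, stood at 51.7 and 51.4 CPM in Scramble, 115 and 116 in RNF2 shRNA1, 68.3 and 64.3 in the libraries labelled RNF2 shRNA2, 47.1 and 47.7 with PRT4165 and 48.0 and 49.1 with GW-516. It rose 2.24-fold with RNF2 shRNA1 and 1.29-fold in the libraries labelled RNF2 shRNA2. FDPS, which makes farnesyl pyrophosphate, stood at 176 and 178 CPM in Scramble, 317 and 327 in RNF2 shRNA1, 199.96 and 188 in the libraries labelled RNF2 shRNA2, 168 and 166 with PRT4165 and 149 and 143 with GW-516. FDPS rose 1.82-fold with RNF2 shRNA1 and fell 1.21-fold with GW-516 (edgeR adjusted p = 1.3e-07). It has processed pseudogene copies, so its counts are uncertain. With PRT4165 both genes were slightly below Scramble, ACAT2 at log2 -0.12 (edgeR adjusted p = 0.018) and FDPS at -0.084 (0.043). For ACAT2 the adjusted p became 0.14 without Scramble replicate 1, 0.13 without Scramble replicate 2, 0.082 without PRT4165 replicate 1 and 0.054 without PRT4165 replicate 2. For FDPS it became 0.19 without Scramble replicate 1, 0.33 without Scramble replicate 2, 0.081 without PRT4165 replicate 1 and 0.22 without PRT4165 replicate 2.

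Of the 11 enzymes from squalene to cholesterol, 9 rose with RNF2 shRNA1 and none fell, with a median log2 of 1.16. In the other groups 6 of the 11 rose each time, and 2 fell in the libraries labelled RNF2 shRNA2, 1 with PRT4165 and 2 with GW-516. Of all genes tested, 26.2% rose and 28.6% fell with RNF2 shRNA1, and 21.1% and 21% for RNF2 shRNA2. With PRT4165 the shares were 19.9% and 21.7%, and with GW-516 26.5% and 29%. With the pairs summed, the medians of the 11 were 1.17 with RNF2 shRNA1, 0.16 for RNF2 shRNA2, 0.22 with PRT4165 and 0.17 with GW-516. MSMO1, which oxidises the methyl groups at carbon 4 of the sterol ring, stood at 39.9 and 41.4 CPM in Scramble, 274 and 273 in RNF2 shRNA1, 53.9 and 56.1 in the libraries labelled RNF2 shRNA2, 54.4 and 52.8 with PRT4165 and 63.0 and 61.9 with GW-516. All other groups were above Scramble, and RNF2 shRNA1 was several times above them. MSMO1 rose 6.74-fold with RNF2 shRNA1 (log2 2.75, SE 0.037, n = 2 against 2, edgeR adjusted p = 1.3e-25), 1.36-fold in the libraries labelled RNF2 shRNA2, 1.32-fold with PRT4165 and 1.54-fold with GW-516. The last of these had an edgeR adjusted p of 5.0e-13.

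SQLE, squalene epoxidase, stood at 118 and 115 CPM in Scramble, 437 and 437 in RNF2 shRNA1, 128 and 136 in the libraries labelled RNF2 shRNA2, 137 and 135 with PRT4165 and 142 and 143 with GW-516. FDFT1, squalene synthase, stood at 153 and 148 CPM in Scramble, 499 and 502 in RNF2 shRNA1, 185 and 181 in the libraries labelled RNF2 shRNA2, 174 and 165 with PRT4165 and 170.2 and 169.7 with GW-516. Both rose in every group against Scramble, 3.74-fold and 3.32-fold with RNF2 shRNA1 and by at most 1.22-fold elsewhere. LSS, which closes squalene epoxide into the first sterol, behaved differently between groups. Its levels were 27.7 and 27.4 CPM in Scramble, 43.9 and 44.4 in RNF2 shRNA1, 23.3 and 25.6 in the libraries labelled RNF2 shRNA2, 26.2 and 27.3 with PRT4165 and 24.4 and 23.3 with GW-516. LSS rose 1.60-fold with RNF2 shRNA1 and was lower with GW-516 (log2 -0.21, edgeR adjusted p = 0.0021, or 0.066 when GW-516 replicate 2 was left out) and in the libraries labelled RNF2 shRNA2 (log2 -0.16, edgeR adjusted p = 0.016). For the latter the adjusted p became 0.084 without Scramble replicate 1, 0.080 without Scramble replicate 2 and 0.17 without RNF2 shRNA2 replicate 1.

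SC5D, which puts in the ring double bond at carbon 5, rose with RNF2 shRNA1 and with both compounds. It stood at 103 and 105 CPM in Scramble, 216 and 217 in RNF2 shRNA1, 105 and 111 in the libraries labelled RNF2 shRNA2, 136 and 125 with PRT4165 and 172 and 177 with GW-516. The rises were 2.08-fold, 1.255-fold with PRT4165 and 1.68-fold with GW-516, the last with SE 0.037 on the log2 scale. For RNF2 shRNA2 the SC5D difference was 0.060 (95% interval -0.018 to 0.14). DHCR7, the reductase that yields cholesterol from 7-dehydrocholesterol, stood at 87.2 and 86.3 CPM in Scramble, 198 and 192 in RNF2 shRNA1, 119 and 126 in the libraries labelled RNF2 shRNA2, 81.5 and 87.5 with PRT4165 and 95.2 and 98.4 with GW-516. It rose 2.25-fold with RNF2 shRNA1, 1.41-fold in the libraries labelled RNF2 shRNA2 and 1.12-fold with GW-516.

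NSDHL, which removes the carboxyl group left at carbon 4, stood at 19.7 and 19.7 CPM in Scramble, 27.8 and 29.4 in RNF2 shRNA1, 31.7 and 31.0 in the libraries labelled RNF2 shRNA2, 24.1 and 23.6 with PRT4165 and 25.6 and 23.7 with GW-516. It was above Scramble in all groups, and the libraries labelled RNF2 shRNA2 were highest (1.59-fold, against 1.45-fold with RNF2 shRNA1). HSD17B7, the ketosteroid reductase of the same step, stood at 13.3 and 12.3 CPM in Scramble, 29.1 and 28.1 in RNF2 shRNA1, 15.7 and 13.3 in the libraries labelled RNF2 shRNA2, 14.9 and 15.1 with PRT4165 and 11.9 and 11.1 with GW-516. It rose 2.24-fold with RNF2 shRNA1 and 1.17-fold with PRT4165 (edgeR adjusted p = 0.017, 0.13 without Scramble replicate 2). For RNF2 shRNA2 its difference of 0.17 did not pass (0.071) but did without replicate 2 of that group (0.0064). CYP51A1, the lanosterol demethylase, was among the lowest members, at 4.52 and 4.61 CPM in Scramble, 10.6 and 11.7 in RNF2 shRNA1, 7.54 and 5.82 in the libraries labelled RNF2 shRNA2, 5.05 and 5.73 with PRT4165 and 5.78 and 4.89 with GW-516. It rose 2.44-fold with RNF2 shRNA1 and 1.45-fold in the libraries labelled RNF2 shRNA2. With GW-516 CYP51A1 stood at 0.23 (edgeR adjusted p = 0.13, 0.048 without GW-516 replicate 2). HSD17B7 and CYP51A1 have pseudogene copies, and their counts are uncertain.

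TM7SF2 and EBP did not rise in any group. TM7SF2, a sterol C14 reductase, stood at 11.1 and 11.1 CPM in Scramble, 9.54 and 10.9 in RNF2 shRNA1, 4.66 and 5.02 in the libraries labelled RNF2 shRNA2, 8.82 and 9.78 with PRT4165 and 8.52 and 8.65 with GW-516. The libraries labelled RNF2 shRNA2 were below all others, 2.28-fold under Scramble (log2 -1.19, SE 0.092, edgeR adjusted p = 1.4e-10). TM7SF2 was also lower with GW-516 (-0.37, edgeR adjusted p = 8.2e-04) and with PRT4165 (-0.25, edgeR adjusted p = 0.021). The PRT4165 difference had an adjusted p of 0.11 without Scramble replicate 1, 0.11 without Scramble replicate 2 and 0.23 without PRT4165 replicate 1. With RNF2 shRNA1 its difference was -0.12 (95% interval -0.30 to 0.064). EBP, the sterol isomerase, stood at 9.21 and 8.09 CPM in Scramble, 8.30 and 8.48 in RNF2 shRNA1, 9.12 and 7.61 in the libraries labelled RNF2 shRNA2, 8.57 and 7.75 with PRT4165 and 7.21 and 8.69 with GW-516, and its groups overlapped. Its differences from Scramble lay between -0.12 with GW-516 and -0.045 with RNF2 shRNA1, with 95% intervals of -0.34 to 0.094 and -0.27 to 0.18.

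**Figure D3:**
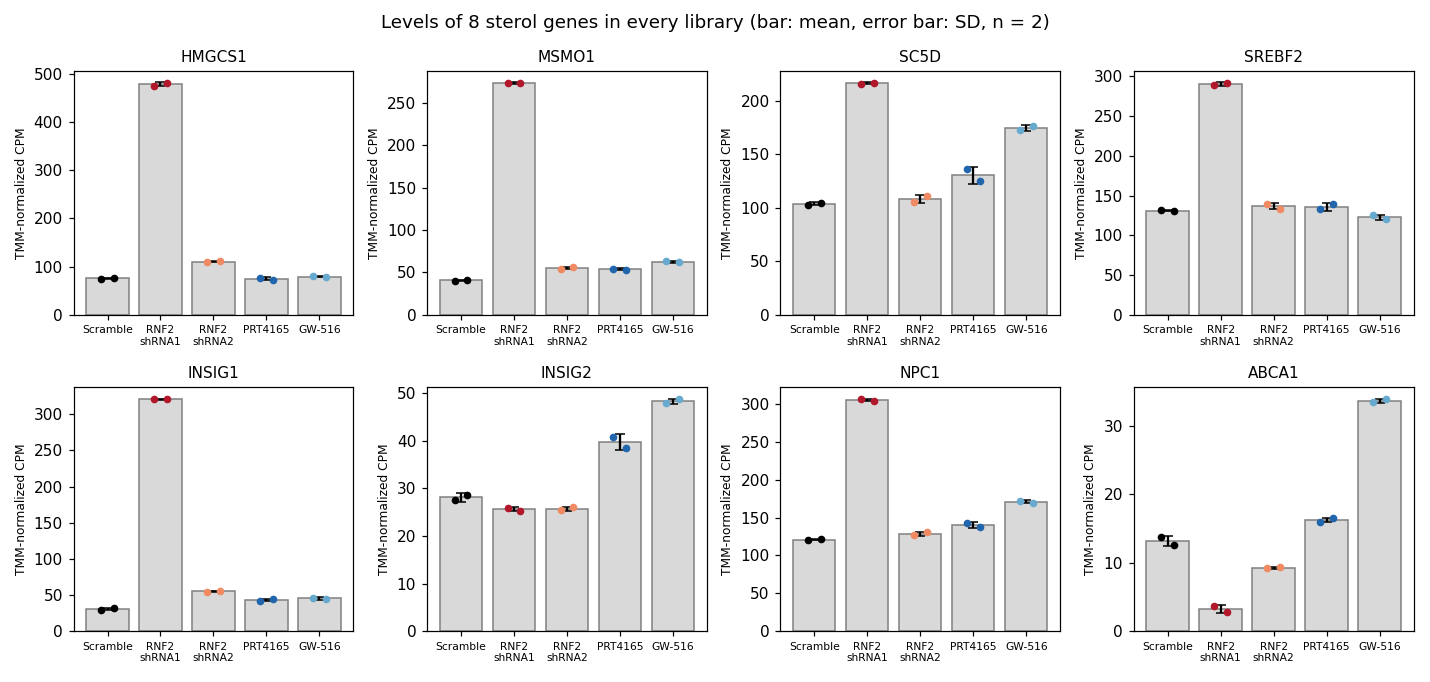
TMM-normalized CPM (vertical axes, from 0) of 8 members in the 5 groups (horizontal axes). Points are libraries, bars the mean and error bars the SD of n = 2. HMGCS1, MSMO1, SC5D, SREBF2, INSIG1 and NPC1 are highest in RNF2 shRNA1, and of these MSMO1, SC5D, INSIG1 and NPC1 also rise with GW-516. INSIG2 and ABCA1 are highest with GW-516.

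Of the 5 genes of SREBP control, 3 rose and 2 fell with RNF2 shRNA1, and INSIG1 had the largest change of any member there. In the libraries labelled RNF2 shRNA2 and with PRT4165, 2 rose and 1 fell in each, and with GW-516 2 rose and 2 fell. Of all genes tested, 26.2% rose and 28.6% fell with RNF2 shRNA1, and 21.1% and 21% for RNF2 shRNA2. With PRT4165 the shares were 19.9% and 21.7%, and with GW-516 26.5% and 29%. After summing the pairs, none of the falls passed. The medians were then 0.51 with RNF2 shRNA1, 0.048 for RNF2 shRNA2, 0.085 with PRT4165 and -0.079 with GW-516. INSIG1, which retains SCAP in the endoplasmic reticulum when sterol is plentiful and is itself an SREBP target, stood at 29.6 and 31.5 CPM in Scramble, 321 and 322 in RNF2 shRNA1, 54.3 and 55.2 in the libraries labelled RNF2 shRNA2, 42.0 and 43.7 with PRT4165 and 46.2 and 43.9 with GW-516. All libraries outside Scramble were above both Scramble libraries. It rose 10.5-fold with RNF2 shRNA1 (log2 3.39, SE 0.041, n = 2 against 2, edgeR adjusted p = 2.1e-26), 1.79-fold in the libraries labelled RNF2 shRNA2, 1.401-fold with PRT4165 and 1.47-fold with GW-516. Its paralogue INSIG2, which holds SCAP in the same way, had another order of groups. INSIG2 stood at 27.5 and 28.7 CPM in Scramble, 25.9 and 25.3 in RNF2 shRNA1, 25.4 and 26.1 in the libraries labelled RNF2 shRNA2, 40.9 and 38.5 with PRT4165 and 47.9 and 48.7 with GW-516. It was higher with both compounds, 1.41-fold and 1.72-fold (edgeR adjusted p = 7.9e-09 and 7.6e-13).

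In both hairpin groups INSIG2 lay slightly under Scramble, at log2 -0.13 with RNF2 shRNA1 and -0.13 in the libraries labelled RNF2 shRNA2 (edgeR adjusted p = 0.030 and 0.044). With 1 library left out, the first became 0.060 without Scramble replicate 1, 0.30 without Scramble replicate 2, 0.067 without RNF2 shRNA1 replicate 1 and 0.23 without RNF2 shRNA1 replicate 2. The second became 0.055 without Scramble replicate 1, 0.34 without Scramble replicate 2 and 0.14 without RNF2 shRNA2 replicate 1. With DESeq2 neither passed (adjusted p = 0.13 and 0.12).

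SREBF2, which encodes the SREBP with the main role in cholesterol synthesis, stood at 132 and 130.3 CPM in Scramble, 289 and 292 in RNF2 shRNA1, 139 and 134 in the libraries labelled RNF2 shRNA2, 133 and 139 with PRT4165 and 125 and 121 with GW-516. It rose 2.22-fold with RNF2 shRNA1 (log2 1.15, SE 0.033). In the libraries labelled RNF2 shRNA2 and with PRT4165 it did not pass, at 0.059 (95% interval -0.0088 to 0.13) and 0.051 (-0.017 to 0.12), although the latter did without PRT4165 replicate 1 (edgeR adjusted p = 0.041). With GW-516 SREBF2 was slightly lower, at log2 -0.092 (edgeR adjusted p = 0.021), and this became 0.18 without Scramble replicate 1, 0.13 without Scramble replicate 2, 0.060 without GW-516 replicate 1 and 0.35 without GW-516 replicate 2.

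SREBF1, which encodes the SREBP better known for fatty acid synthesis, stood at 72.7 and 73.6 CPM in Scramble, 103 and 104 in RNF2 shRNA1, 84.1 and 80.6 in the libraries labelled RNF2 shRNA2, 61.7 and 70.03 with PRT4165 and 64.1 and 66.2 with GW-516. It rose 1.42-fold with RNF2 shRNA1. Smaller differences passed in the other groups, 0.17 in the libraries labelled RNF2 shRNA2, -0.15 with PRT4165 and -0.17 with GW-516 (edgeR adjusted p = 0.0043, 0.011 and 0.0035). With 1 library left out, the first of these became 0.054 without Scramble replicate 1. That with PRT4165 became 0.058 without Scramble replicate 1, 0.14 without Scramble replicate 2 and 0.35 without PRT4165 replicate 1, and that with GW-516 0.066 without Scramble replicate 2 and 0.082 without GW-516 replicate 1. SCAP, the escort, stood at 85.6 and 83.9 CPM in Scramble, 79.2 and 77.2 in RNF2 shRNA1, 86.5 and 86.2 in the libraries labelled RNF2 shRNA2, 86.6 and 92.6 with PRT4165 and 80.1 and 80.4 with GW-516. Its difference with RNF2 shRNA1 was -0.12 (edgeR adjusted p = 0.012), which became 0.15 without Scramble replicate 1, 0.071 without Scramble replicate 2 and 0.20 without RNF2 shRNA1 replicate 2, and 0.053 with DESeq2. SCAP did not pass elsewhere, though with PRT4165 (0.079, edgeR adjusted p = 0.094) it did without PRT4165 replicate 1 (0.0073).

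Of the 5 tested transport genes, 2 rose and 2 fell with RNF2 shRNA1, 3 rose and 1 fell in the libraries labelled RNF2 shRNA2, 3 rose with PRT4165, and 4 rose and 1 fell with GW-516. Of all genes tested, 26.2% rose and 28.6% fell with RNF2 shRNA1, and 21.1% and 21% for RNF2 shRNA2. With PRT4165 the shares were 19.9% and 21.7%, and with GW-516 26.5% and 29%. Once the pairs were summed, the medians were 0.035 with RNF2 shRNA1, 0.13 for RNF2 shRNA2, 0.21 with PRT4165 and 0.43 with GW-516. ABCA1 moved in opposite directions with RNF2 shRNA1 and with GW-516. ABCA1, which exports cholesterol to apolipoprotein A-I and is a classic LXR target, stood at 13.7 and 12.6 CPM in Scramble, 3.62 and 2.85 in RNF2 shRNA1, 9.14 and 9.33 in the libraries labelled RNF2 shRNA2, 16.0 and 16.5 with PRT4165 and 33.4 and 33.8 with GW-516. No groups overlapped, and the order from low to high was RNF2 shRNA1, the libraries labelled RNF2 shRNA2, Scramble, PRT4165 and GW-516. It fell 4.05-fold with RNF2 shRNA1 (log2 -2.02, SE 0.091, n = 2 against 2, edgeR adjusted p = 2.1e-15) and 1.43-fold in the libraries labelled RNF2 shRNA2. ABCA1 rose 1.23-fold with PRT4165 (edgeR adjusted p = 0.0016) and 2.55-fold with GW-516 (log2 1.35, SE 0.069, edgeR adjusted p = 2.8e-14). MYLIP is also an LXR target. It stood at 20.2 and 19.1 CPM in Scramble, 20.5 and 19.5 in RNF2 shRNA1 and 21.3 and 22.2 in the libraries labelled RNF2 shRNA2. Its levels were 19.2 and 17.8 with PRT4165 and 23.7 and 22.9 with GW-516. It rose 1.19-fold with GW-516 (edgeR adjusted p = 9.5e-04). With RNF2 shRNA1 its difference was 0.024 (95% interval -0.10 to 0.15). MYLIP in the libraries labelled RNF2 shRNA2 stood at 0.14 (edgeR adjusted p = 0.053, 0.047 without replicate 1 of that group).

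NPC1, which moves lipoprotein cholesterol out of lysosomes, stood at 120.3 and 122 CPM in Scramble, 307 and 304 in RNF2 shRNA1, 127 and 130.4 in the libraries labelled RNF2 shRNA2, 142 and 137 with PRT4165 and 172 and 169.8 with GW-516. It rose 2.52-fold with RNF2 shRNA1, 1.15-fold with PRT4165 and 1.41-fold with GW-516 (edgeR adjusted p = 6.5e-21, 6.1e-06 and 8.7e-13). The difference of 0.088 in the libraries labelled RNF2 shRNA2 (edgeR adjusted p = 0.025) became 0.24 without Scramble replicate 1, 0.053 without Scramble replicate 2 and 0.24 without RNF2 shRNA2 replicate 2. STARD4, a cytosolic sterol carrier and SREBP target, stood at 30.4 and 29.6 CPM in Scramble, 94.9 and 96.1 in RNF2 shRNA1, 40.4 and 42.4 in the libraries labelled RNF2 shRNA2, 35.7 and 34.3 with PRT4165 and 39.7 and 41.3 with GW-516. It rose in all groups against Scramble, 3.18-fold with RNF2 shRNA1 and between 1.17-fold and 1.38-fold in the rest.

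SOAT1, which esterifies cholesterol for storage, stood at 72.9 and 73.9 CPM in Scramble, 64.3 and 67.7 in RNF2 shRNA1, 79.4 and 83.6 in the libraries labelled RNF2 shRNA2, 70.1 and 68.6 with PRT4165 and 64.6 and 64.1 with GW-516. It was lower with GW-516 (log2 -0.19, edgeR adjusted p = 2.0e-04) and with RNF2 shRNA1 (-0.15, edgeR adjusted p = 0.0020) and higher in the libraries labelled RNF2 shRNA2 (0.15, edgeR adjusted p = 0.0024). With 1 library left out, the second became 0.052 without Scramble replicate 2 and 0.063 without RNF2 shRNA1 replicate 1, and the third 0.056 without Scramble replicate 1 and 0.075 without RNF2 shRNA2 replicate 2.

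Levels can be compared between genes only per length of exon, as RPKM. In Scramble the highest member was FDPS at 47.5 ± 0.361 RPKM (mean ± SD, n = 2), followed by PMVK at 34.8 ± 0.347, FDFT1 at 28.95 ± 0.627 and SQLE at 27.1 ± 0.505. The lowest tested members there were CYP51A1 at 1.12 ± 0.0148 and ABCA1 at 1.16 ± 0.0676, which overlapped within their spread. FDPS and CYP51A1 have pseudogene copies, so their places are uncertain, and the SD does not cover this. With RNF2 shRNA1 the highest were HMGCS1 and SQLE, at 101.5 ± 0.887 and 101.5 ± 0.109 RPKM, which overlapped within their spread, followed by FDFT1 at 96.2 ± 0.372, MSMO1 at 94.6 ± 0.235 and INSIG1 at 88.0 ± 0.186. INSIG1 and INSIG2 were close in Scramble, at 8.38 ± 0.366 and 7.12 ± 0.217 RPKM, and far apart with RNF2 shRNA1, at 88.0 ± 0.186 and 6.49 ± 0.105. With GW-516 they stood at 12.4 ± 0.443 and 12.2 ± 0.144, a gap no larger than their spread.

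**Figure D4:**
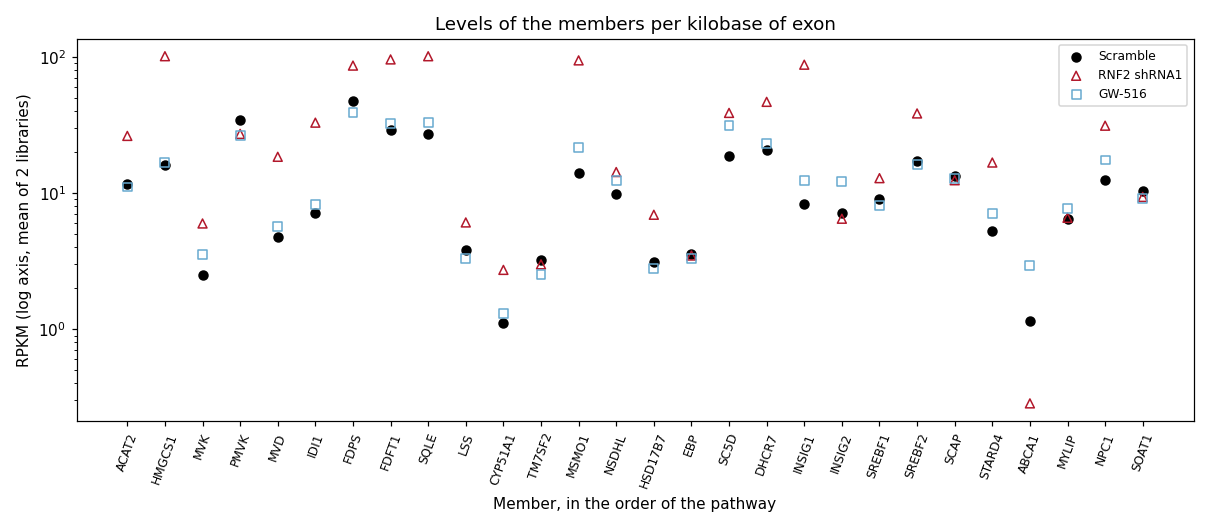
Mean RPKM of 2 libraries (vertical log axis) of the 28 tested members (horizontal axis, in pathway order) in Scramble, RNF2 shRNA1 and GW-516. HMGCS1, SQLE, FDFT1, MSMO1, INSIG1 and FDPS come to between 86.6 and 102 RPKM in RNF2 shRNA1, while GW-516 mostly lies near Scramble, with ABCA1 above it.

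A direct comparison of both hairpin groups separated most members. Under RNF2 shRNA2, 5 members were higher and 20 lower than in RNF2 shRNA1, where 29.9% of all genes tested were higher and 29.2% lower. The median of the members was -0.82. INSIG1 was 5.86-fold lower (log2 -2.55, SE 0.038), MSMO1 4.97-fold, HMGCS1 4.33-fold, IDI1 3.35-fold, SQLE 3.31-fold and MVD 2.88-fold. TM7SF2, which had not passed with RNF2 shRNA1 against Scramble, was 2.10-fold lower as well. ABCA1 was 2.85-fold higher (log2 1.51, SE 0.093, edgeR adjusted p = 5.4e-13), and SOAT1 (0.30), PMVK (0.23) and SCAP (0.14) were slightly higher. The fifth, NSDHL, differed by 0.14 (edgeR adjusted p = 0.030), and its adjusted p became 0.25 without RNF2 shRNA1 replicate 1, 0.14 without RNF2 shRNA2 replicate 1 and 0.098 without RNF2 shRNA2 replicate 2. For SCAP it became 0.066 without RNF2 shRNA1 replicate 2. After summing the pairs, the medians were -0.85 for the members and -5.3e-05 for all genes tested. The calls of NSDHL and SCAP ended there. INSIG2 and EBP differed by 0.0067 and -0.013 (95% intervals -0.097 to 0.11 and -0.23 to 0.21).

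GW-516 and PRT4165, both applied for 48 hours at doses the labels do not give, differed less. With GW-516, 10 members were higher and 7 lower than with PRT4165, against 18.1% and 23% of all genes tested, and the median was 0.042. ABCA1 differed most, 2.07-fold higher with GW-516 (log2 1.05, SE 0.068, edgeR adjusted p = 7.8e-12). SC5D (0.42), MYLIP (0.34), MVD (0.32), IDI1 (0.31), NPC1 (0.29) and INSIG2 (0.28) were also higher with GW-516. HSD17B7 was 1.31-fold lower with GW-516 (log2 -0.38, edgeR adjusted p = 1.6e-04), and FDPS, SCAP and SREBF2 were lower by smaller amounts (-0.19, -0.16 and -0.14). INSIG1 differed by 0.074 (95% interval -0.0077 to 0.16) and FDFT1 by 0.0034 (-0.060 to 0.067). The 3 other lower calls, PMVK, LSS and SOAT1, did not hold with single libraries left out. For PMVK the adjusted p became 0.45 without PRT4165 replicate 2, 0.10 without GW-516 replicate 1 and 0.16 without GW-516 replicate 2, for LSS 0.11 without PRT4165 replicate 2 and 0.18 without GW-516 replicate 2 and for SOAT1 0.14 without PRT4165 replicate 1, 0.12 without GW-516 replicate 1 and 0.16 without GW-516 replicate 2. The count of lower members was 4 without GW-516 replicate 2. Once the pairs were summed, the medians were 0.038 for the members and -0.0015 for all genes tested. The calls of PMVK, LSS, SREBF2, SCAP and SOAT1 ended there. HMGCS1, not called at 0.080, passed without PRT4165 replicate 1, at 0.12.

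**Figure D5:**
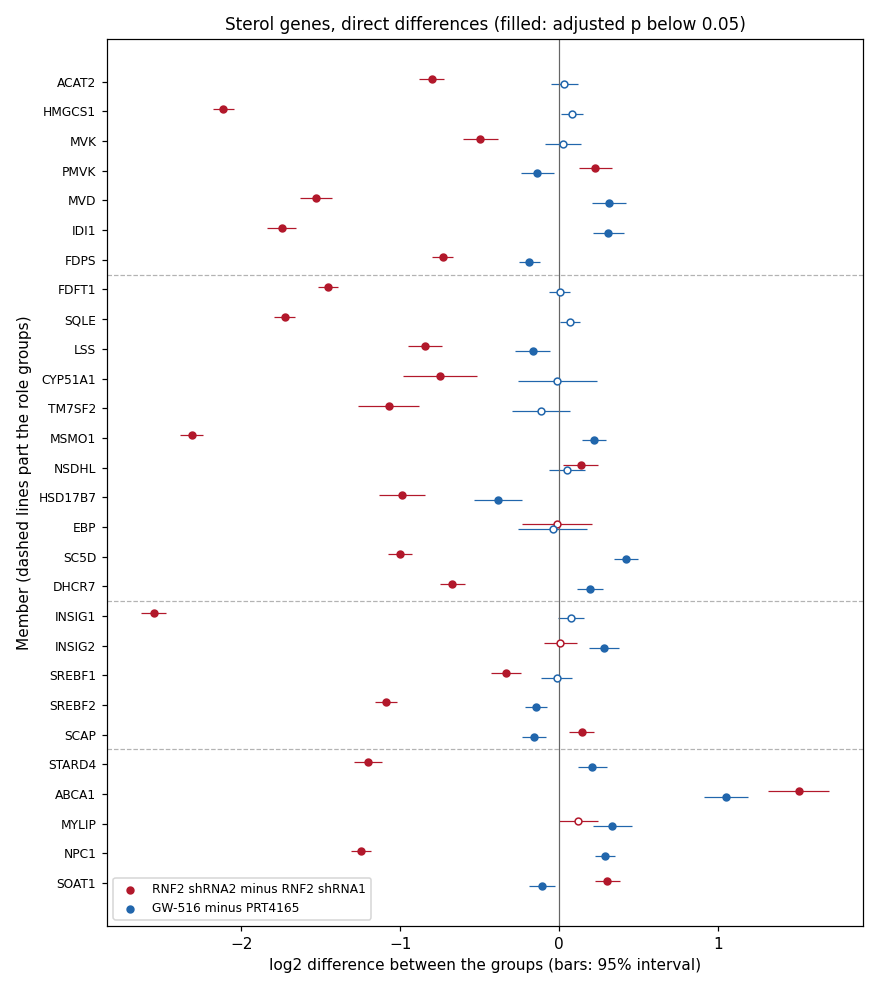
log2 difference (horizontal axis, with 95% intervals) of the 28 tested members (vertical axis, by role group) between the hairpin groups and between the compounds; filled points passed an edgeR adjusted p of 0.05. Hairpin differences run from -2.55 for INSIG1 to 1.51 for ABCA1, and compound differences from -0.38 for HSD17B7 to 1.05 for ABCA1.

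Most members stood lower with either compound than with RNF2 shRNA1. These comparisons, that of the hairpin groups and that of RNF2 shRNA1 with Scramble share the 2 RNF2 shRNA1 libraries. They are therefore not separate findings, and a chance shift in those libraries would move all of them. With PRT4165, 3 members were higher and 20 lower than in RNF2 shRNA1, against 27.4% and 25.8% of all genes tested, with a median of -0.94. With GW-516, 3 were higher and 21 lower, against 31% and 30.4%, with a median of -0.95. INSIG1 was 7.50-fold lower with PRT4165 and 7.12-fold lower with GW-516, and HMGCS1 6.39-fold and 6.05-fold lower. MSMO1 was 5.10-fold and 4.38-fold lower, IDI1 4.96-fold and 4.00-fold, and MVD 4.04-fold and 3.25-fold. Among enzymes that rose both with RNF2 shRNA1 and with GW-516, those nearest to each other were NSDHL, 1.16-fold lower with GW-516, and SC5D, 1.24-fold lower. The NSDHL difference had an edgeR adjusted p of 0.0015, and 0.057 without GW-516 replicate 2. TM7SF2 was lower by the same test (-0.25, 0.015), which became 0.26 without RNF2 shRNA1 replicate 2, 0.084 without GW-516 replicate 1 and 0.058 without GW-516 replicate 2. ABCA1 was 4.99-fold higher with PRT4165 and 10.3-fold higher with GW-516 (log2 3.37, SE 0.085, edgeR adjusted p = 1.4e-20). INSIG2 was higher by 0.63 and 0.92. The third higher member was SCAP with PRT4165 (0.20) and MYLIP with GW-516 (0.22). After summing the pairs, the medians were -0.95 with PRT4165 and -0.96 with GW-516, against 0.012 and 0.021 for all genes tested. The calls of TM7SF2 and MYLIP with GW-516 ended there.

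A further 76 genes of sterol metabolism outside the members were listed, and 70 of them were tested. With RNF2 shRNA1, 28 were higher and 22 lower (median log2 -0.018), where 26.2% of all genes tested were higher and 28.6% lower. For RNF2 shRNA2, 22 were higher and 18 lower (0.040), against 21.1% and 21%. With PRT4165, 18 were higher and 16 lower (-0.022), against 19.9% and 21.7%. With GW-516, 23 were higher and 24 lower (0.018), against 26.5% and 29%. The sub-lists that follow are small and are to be read beside these shares. Once the pairs were summed, 71 genes could be tested. Their medians were -5.1e-04 with RNF2 shRNA1, 0.040 for RNF2 shRNA2, -0.016 with PRT4165 and 0.021 with GW-516. Those of all genes tested were 0, 0.0036, 4.4e-04 and 0.014 in that order. Of 14 genes of the isoprenoid and non-sterol branch, 7 were higher and 4 lower with RNF2 shRNA1 (median log2 0.12 with the pairs summed). PDSS1, which makes the side chain of coenzyme Q, fell 2.10-fold and the prelamin protease ZMPSTE24 1.81-fold. With the pairs summed, PDSS1 stood at log2 -1.06 with RNF2 shRNA1, 0.18 for RNF2 shRNA2, -0.31 with PRT4165 and -0.66 with GW-516. ZMPSTE24 stood at -0.84, 0.22, -0.087 and -0.017 in that order. DHDDS, a dolichol synthesis enzyme, rose 1.46-fold with GW-516. With the pairs summed it stood at log2 0.55 there, 0.33 with RNF2 shRNA1, 0.26 for RNF2 shRNA2 and 0.24 with PRT4165. Of 16 genes of SREBP processing and sterol-regulated degradation, 3 were higher and 8 lower with RNF2 shRNA1. With GW-516 6 were higher and 10 lower. Their medians with the pairs summed were log2 -0.088 with RNF2 shRNA1 and -0.12 with GW-516. FBXW7, which targets nuclear SREBP for degradation, rose 1.65-fold with RNF2 shRNA1. With the pairs summed it stood at log2 0.73 there, 0.29 for RNF2 shRNA2, 0.015 with PRT4165 and -0.13 with GW-516. PGRMC1 was 1.4999-fold higher and the ubiquitin ligase RNF145 1.52-fold lower in the libraries labelled RNF2 shRNA2. With the pairs summed, PGRMC1 stood at log2 0.57 there, -0.31 with RNF2 shRNA1, 0.29 with PRT4165 and 0.40 with GW-516. RNF145 stood at -0.62, -0.20, -0.11 and 0.13 in that order.

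Of 5 genes that supply acetyl-CoA, 3 were higher and 1 lower with RNF2 shRNA1, where 26.2% of all genes tested were higher and 28.6% lower. Once the pairs were summed, their median with RNF2 shRNA1 was log2 0.24. ACSS2, which makes acetyl-CoA from acetate, rose 2.46-fold there and 1.28-fold in the libraries labelled RNF2 shRNA2. Among 6 tested LXR genes and targets outside the members, 3 were higher and 2 lower with RNF2 shRNA1. With GW-516 3 were higher and 1 lower, where 26.5% and 29% of all genes tested were higher and lower. Their medians with the pairs summed were log2 0.027 with RNF2 shRNA1 and 0.14 with GW-516. SCD, a desaturase that both LXR and SREBP switch on, rose 2.15-fold with RNF2 shRNA1 and was lower with GW-516 (log2 -0.20), the reverse of ABCA1. NR1H2, which encodes LXR beta, rose 1.70-fold with RNF2 shRNA1. With the pairs summed it stood at log2 0.78 there, 0.33 for RNF2 shRNA2, 0.37 with PRT4165 and 0.50 with GW-516. Of 22 further genes of uptake, trafficking and esters, 9 were higher and 5 lower with RNF2 shRNA1. With GW-516 10 were higher and 3 lower. With PRT4165 10 were higher and 1 lower, against 19.9% and 21.7% of all genes tested. Once the pairs were summed, the medians of these genes were log2 0.020 with RNF2 shRNA1, 0.16 with GW-516 and 0.12 with PRT4165. GRAMD1B, which carries cholesterol from the plasma membrane to the endoplasmic reticulum, rose 2.40-fold with GW-516 (edgeR adjusted p = 8.4e-20). The lipoprotein receptor LRP1 rose 2.58-fold with PRT4165. With the pairs summed, LRP1 stood at log2 1.37 with PRT4165, 1.30 with GW-516, 0.052 with RNF2 shRNA1 and -0.10 for RNF2 shRNA2. GRAMD1B stood at 1.26 with GW-516, 0.22 with PRT4165, 0.72 with RNF2 shRNA1 and 0.67 for RNF2 shRNA2. ERG28, a scaffold of late sterol enzymes, rose 1.59-fold with RNF2 shRNA1. Of 4 tested oxysterol and bile acid enzymes, 1 was higher and 1 lower with RNF2 shRNA1, and CYP39A1 fell 2.59-fold. Their median with RNF2 shRNA1 was log2 -0.11 with the pairs summed.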

How the data were processed

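The authors deposited raw counts per gene, 1 table per library. Per the file headers, featureCounts 1.4.3-p1 with strand option 2 and GENCODE 18 made them without an option for read pairs, so both ends of a fragment were counted, which understates counting noise. Of counts from 1 to 10, 62.7% to 69.6% were even. The submitters' processing notes name hg19 (GRCh37), STAR without a version, and DESeq2 1.8.1. Nothing read here says how reads matching several places were treated.

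Symbols were found for 89.6% of 57445 identifiers. The deposited counts went into edgeR 4.0.16 (R 4.3.3) with TMM factors and filterByExpr (minimum count 10). All 10 libraries shared a model of 5 group means, which leaves 5 residual degrees of freedom. Tests were two-sided quasi-likelihood F tests with robust dispersions. In each of the 8 comparisons, Benjamini-Hochberg adjustment covered 18478 genes. Intervals are at 95%. RPKM used the exon lengths of the count tables. The fit was tested on simulated data. Deviations of libraries with the same number were uncorrelated between groups, so the numbers of the labels were not taken as pairs.

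The members and lists were chosen with earlier results of these data known. Members were named by size of change and against their role group. Outside them, RNF2, BMI1 and up to 3 genes a list, by smallest adjusted p against Scramble, could be named, and not all of these are reported here. Alternatives were RLE size factors, the Wald test of DESeq2 1.42.0, voom in limma 3.58.1, other low-count filters (none, or 1 CPM in 2 libraries), fitting just the compared groups, replicate number as a block, stricter thresholds, each library left out, nearly identical pairs summed, and both RNF2 shRNA2 libraries left out. Promoters came from RefSeq on GRCh38.p14. Of their 31 member entries, 28 lay in a GENCODE 29 transcript of the gene as written and 0 on the other strand. Figures used Python 3.11.15 and matplotlib 3.10.9.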

Additional observations from a re-analysis of the deposited data

Results flagged for a closer look

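Members that passed against Scramble in opposite directions in a pair of groups, and whose direct difference between those groups also passed, are given here as log2 differences from edgeR. For LSS and SOAT1 the libraries labelled RNF2 shRNA2 minus RNF2 shRNA1 gave -0.85 and 0.30. PRT4165 minus RNF2 shRNA1 gave -1.28 for ACAT2, -0.95 for FDPS, 0.63 for INSIG2, -0.66 for SREBF1 and 2.32 for ABCA1. GW-516 minus RNF2 shRNA1 gave -1.14 for FDPS, -0.89 for LSS, 0.92 for INSIG2, -0.67 for SREBF1, -1.24 for SREBF2 and 3.37 for ABCA1. The opposite signs of ABCA1 held without any single library, though for the near-identical pairs this may have kept the same sample. In the other cases the smaller of the opposed differences, or that of INSIG2 under Scramble, was lost with at least 1 library left out, except for FDPS with GW-516. With 2 libraries a group, single outlying libraries were not looked for.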

How the results depend on the processing

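No member changed direction among those called, and the 20 rises with RNF2 shRNA1 stayed between 16 (at least 2-fold) and 20 in every setting. The small counts of falls moved. Here RNF2 shRNA2 means the libraries so labelled. At an adjusted p under 0.01, falls numbered 3 with RNF2 shRNA1, 2 in RNF2 shRNA2, 1 with PRT4165 and 4 for GW-516 against PRT4165. With at least 2-fold, RNF2 shRNA1 kept 1 fall, RNF2 shRNA2 0 rises and 1 fall, PRT4165 0 and 0, and GW-516 1 rise and 0 falls. By that rule RNF2 shRNA2 against RNF2 shRNA1 had 1 higher and 12 lower, GW-516 against PRT4165 1 and 0, PRT4165 against RNF2 shRNA1 1 and 13, and GW-516 against RNF2 shRNA1 1 higher. RLE size factors gave 3 falls in RNF2 shRNA2. DESeq2 gave 3 falls with RNF2 shRNA1, 3 in RNF2 shRNA2 and 2 with PRT4165. PRT4165 falls numbered 3 with no filter on low counts and 2 with only the compared groups fitted. Leaving out 1 library gave 2 to 3 falls with RNF2 shRNA1, 2 to 4 in RNF2 shRNA2, 1 to 3 with PRT4165 and 4 to 6 for GW-516 against PRT4165. A replicate block gave 3 falls in RNF2 shRNA2 and ended the calls of PMVK (0.055) and INSIG2 (0.055) there and of FDPS with PRT4165 (0.052). Libraries of equal number share only the number, since deviations from the group means correlated at -0.088 to 0.016 between groups. Summing the 3 nearly identical replicate pairs left 2 falls with RNF2 shRNA1, 2 in RNF2 shRNA2, 1 with PRT4165 and 3 with GW-516, 3 higher for RNF2 shRNA2 against RNF2 shRNA1, and 2 lower for GW-516 against PRT4165. Over all genes, summing changed the higher and lower calls from 3895 and 3877 to 2206 and 2696 in RNF2 shRNA2, from 3681 and 4014 to 2553 and 2358 with PRT4165, from 4890 and 5362 to 3216 and 3667 with GW-516, and from 3348 and 4246 to 1934 and 2621 for GW-516 against PRT4165. At least 2-fold, the all-gene calls were 801 and 782 with RNF2 shRNA1, 305 and 594 in RNF2 shRNA2, 598 and 282 with PRT4165, 1414 and 258 with GW-516, 893 and 1181 for RNF2 shRNA2 against RNF2 shRNA1, 700 and 109 for GW-516 against PRT4165, 1059 and 640 for PRT4165 against RNF2 shRNA1, and 1872 and 661 for GW-516 against RNF2 shRNA1. In the summed fit Scramble, RNF2 shRNA1 and GW-516 had 1 sample each, and its spread came from the RNF2 shRNA2 and PRT4165 pairs. It called fewer of all genes in each of the 8 comparisons, RNF2 shRNA1 against Scramble among them. For no setting was the cause tested. ABCG1, with at most 2 counts in a library, was under the count minimum and not tested. The list medians with pairs summed were added after seeing the data.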
